A study of Mus musculus with 8 samples.

Results

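The antioxidant enzymes described here are those that make and recycle glutathione, those that use glutathione or thioredoxin to reduce peroxides and to conjugate reactive compounds, and the superoxide dismutases and catalase, measured by mRNA sequencing in brown adipose tissue (BAT) of the mouse. They were chosen by name from the protein-coding genes of the GENCODE annotation: the numbered members of the Gpx, Gst, Mgst, Prdx, Sod and Txnrd families, together with Cat, Txn1, Txn2, Gclc, Gclm, Gss, Gsr, Nqo1, Hmox1 and Srxn1. This gave 55 of the 44674 genes quantified, and 49 of the 55 had enough counts to be tested. These enzymes took between 0.607% and 0.841% of all counts in a mouse.

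The study asked what orexin receptor 1 (Ox1R) in serotonergic neurons does for metabolism in obesity. The 4 Ox1RΔSERT mice, called Sert-Ox1R in the sample labels, were Ox1R fl/fl and Sert-Cre tg/wt, so that a Cre recombinase under the serotonin transporter gene removed the receptor from cells that express this transporter. The 4 control mice (CTRL) were Ox1R fl/fl without Cre and are described by the authors as littermates. All 8 were male, of the C57BL/6N strain, received a high-fat diet (HFD) between 4 and 18 weeks of age and gave BAT after a hyperinsulinemic-euglycemic clamp, an infusion of insulin during which blood glucose is held constant.

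Glutathione is a tripeptide whose thiol group reduces peroxides through the glutathione peroxidases and binds electrophiles through the glutathione transferases. Peroxiredoxins reduce peroxides as well and are recharged by thioredoxin, which thioredoxin reductases keep reduced with electrons from NADPH. Brown adipocytes are packed with mitochondria, whose respiratory chain is a source of superoxide, and the superoxide dismutases turn superoxide into hydrogen peroxide, the substrate of catalase and of both families of peroxidases.

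Values of single mice are given throughout in the order 10684, 11253, 11560 and 11563 for the control mice and 11243, 11601, 11613 and 11708 for the Ox1RΔSERT mice. Total counts were 39522431, 35852708, 48106143 and 50020837 for the control mice, against 50063339, 42606857, 41562505 and 42512627 for the Ox1RΔSERT mice. Mitochondrially encoded genes took 40.0, 46.8, 42.7 and 42.1% of a control mouse's counts, against 44.6, 33.6, 34 and 36.2% for the Ox1RΔSERT mice. Normalized values are CPM after TMM scaling, and 3 counts, the limit that a count of 0 allows, corresponded to 0.0592 to 0.0951 CPM, a limit that covers counting error only. Levels of different genes are compared in TPM, which account for transcript length. Every p-value here measures only the spread between these mice.

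The targeted gene Hcrtr1 had 0, 5, 2 and 3 counts in the control mice and 0, 3, 5 and 4 counts in the Ox1RΔSERT mice. It was near the limit of detection in both groups, and since Cre was directed at cells with the serotonin transporter, its counts in BAT do not check the genotype labels. Slc6a4, the gene of the serotonin transporter, had 10, 10, 12 and 19 counts in the control mice and 6, 16, 21 and 6 counts in the Ox1RΔSERT mice.

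Of the 8 libraries, those of Ox1RΔSERT mice 11601 and 11708 stood apart. They lay at 61.6 and 80.5 on the first principal component of all tested genes, which held 52.2% of the variance, while the other 6 mice lay between -47.5 and 8.62. The 13 leukocyte and macrophage markers summed to 200.3, 284, 129.9 and 157 CPM in the control mice and to 200.01, 942, 225 and 747 CPM in the Ox1RΔSERT mice. The 5 fibroblast markers summed to 361, 988, 516 and 525 CPM in the control mice and to 646, 5378, 950.2 and 2501 CPM in the Ox1RΔSERT mice. Both lists were thus highest in mice 11601 and 11708. The 9 brown adipocyte markers were lowest in the same mice, at 6725, 4473, 6203 and 4300.3 CPM in the Ox1RΔSERT mice against 6537, 7526, 8633 and 8379 CPM in the control mice. In bulk tissue, fewer cells of a type and less RNA per cell cannot be told apart. Fold changes and medians without these mice are therefore given beside most of those with all 8, and the part that the other cell types had in any result was not tested.

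None of the antioxidant enzymes differed between the groups at an adjusted p of 0.05. edgeR's quasi-likelihood test called 0 of the 49 tested members and 0% of 14489 genes, with a lowest adjusted p of 0.316, and DESeq2 called 0 of 49 members and 1.75% of the 15119 genes that passed its own filter. At an unadjusted p under 0.05, edgeR held 5 members, 10.2% of them, against 15.2% of all genes. These were Prdx1, Prdx3, Prdx6 and Gstt4 on the lower side and Gsta3 on the higher side. The 4 lower members made 8.16% of the members against 4.96% of all genes, and the 1 higher member made 2.04% against 10.2%. By DESeq2 the count was 7 of 52 members, against 10.7% of 24200 genes, namely Prdx1, Prdx3, Prdx6, Gsta3, Gclm, Gpx7 and Sod2. After mice 11601 and 11708 were left out, edgeR held 0 members at an unadjusted p under 0.05, against 2.85% of 14856 genes, and 0 at an adjusted p.

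The balance of directions rested on the same mice. The median log2 fold change of the 49 members, Ox1RΔSERT against control, was -0.16, while that of all tested genes was 0.00, and 35 members (71.4%) were on the lower side against 49.6% of all genes. Without mice 11601 and 11708 the median was 0.01 against -0.01 for all genes, with 23 members on the lower side and 26 on the higher. On the TPM scale, where the median of all genes was itself shifted by 0.23 with a pseudocount of 1, the members had a median of 0.14, which is -0.09 relative to that shift. Before this shift is taken off, 6 members (12.2%) were on the lower side and 43 on the higher in TPM, against 9.03% of all genes on the lower side. The median log2 deviation of the members from the mean of the control mice was 0.13, 0.08, 0.01 and -0.01 for the controls, against 0.01, -0.28, 0.11 and -0.20 for the Ox1RΔSERT mice. Mice 11601 and 11708 were the only mice clearly below 0, and mice 11243 and 11613 lay within the range of the controls.

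**Figure D1:**
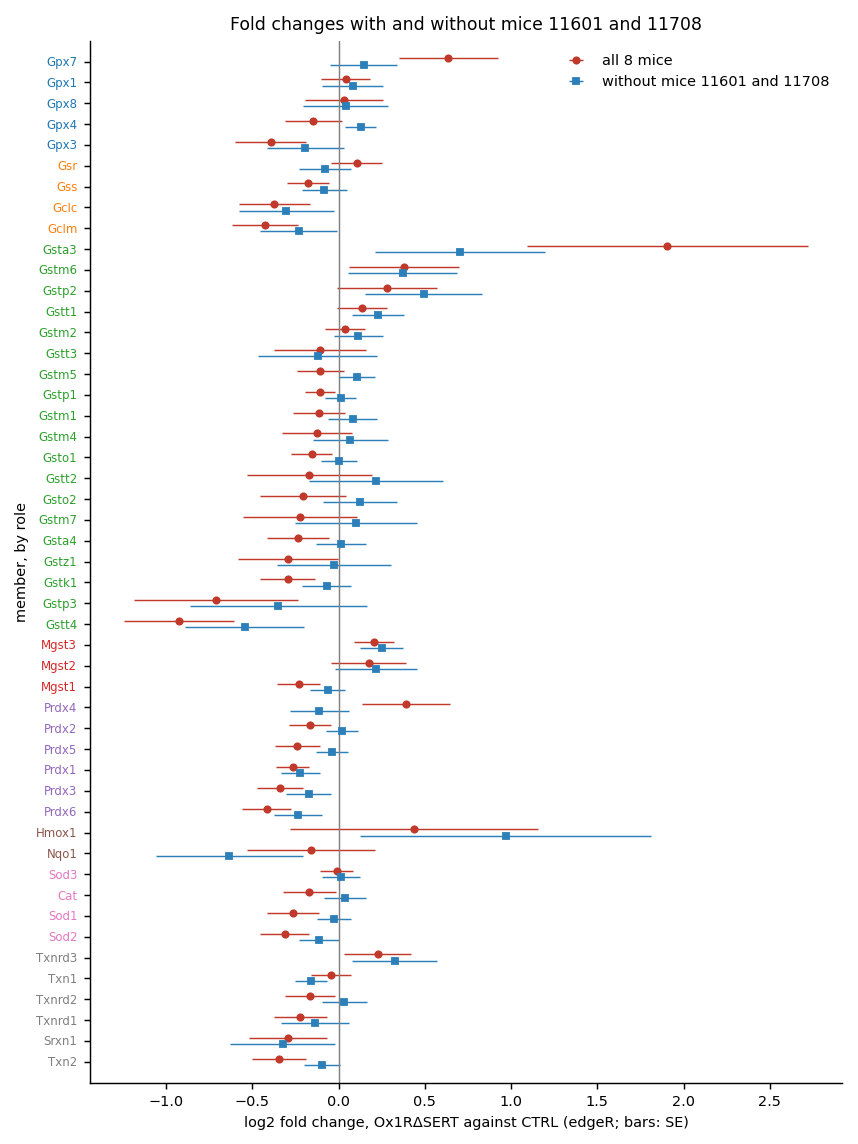
Log2 fold change (x axis, Ox1RΔSERT against CTRL, edgeR) of the 49 tested antioxidant enzymes (y axis, grouped and coloured by role), with all 8 mice in red and without mice 11601 and 11708 in blue; bars are standard errors. With all mice 35 points lie below 0, and without these mice 23 do.

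Levels spanned more than 3 powers of 10. On the TPM scale, averaged over the 8 mice, Gpx4 was the most abundant member at 844 TPM, followed by Gpx3 at 579, Sod1 at 461, Mgst1 at 415, Gpx1 at 318, Prdx1 at 271, Prdx6 at 226 and Hmox1 at 219.7 TPM. Hmox1 reached 690 TPM in mouse 11613 and averaged 162 TPM in the control mice, below Prdx3 at 218 TPM there. By the mean of the control mice, 7 of these 8 members were the same. The lowest tested member, Gstt4, had 0.301 TPM. By role, the glutathione peroxidases made 34.4% of the members' summed TPM, the peroxiredoxins 19.5%, the superoxide dismutases and catalase 16.9%, the microsomal glutathione transferases 8.49%, the other glutathione transferases 7.81%, the thioredoxin system 7.27%, Hmox1 and Nqo1 together 4.30%, and the synthesis and recycling of glutathione 1.25%. Enzymes that act on peroxides and superoxide thus held most of this RNA, and the 4 enzymes that make and recycle glutathione held the least.

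**Figure D2:**
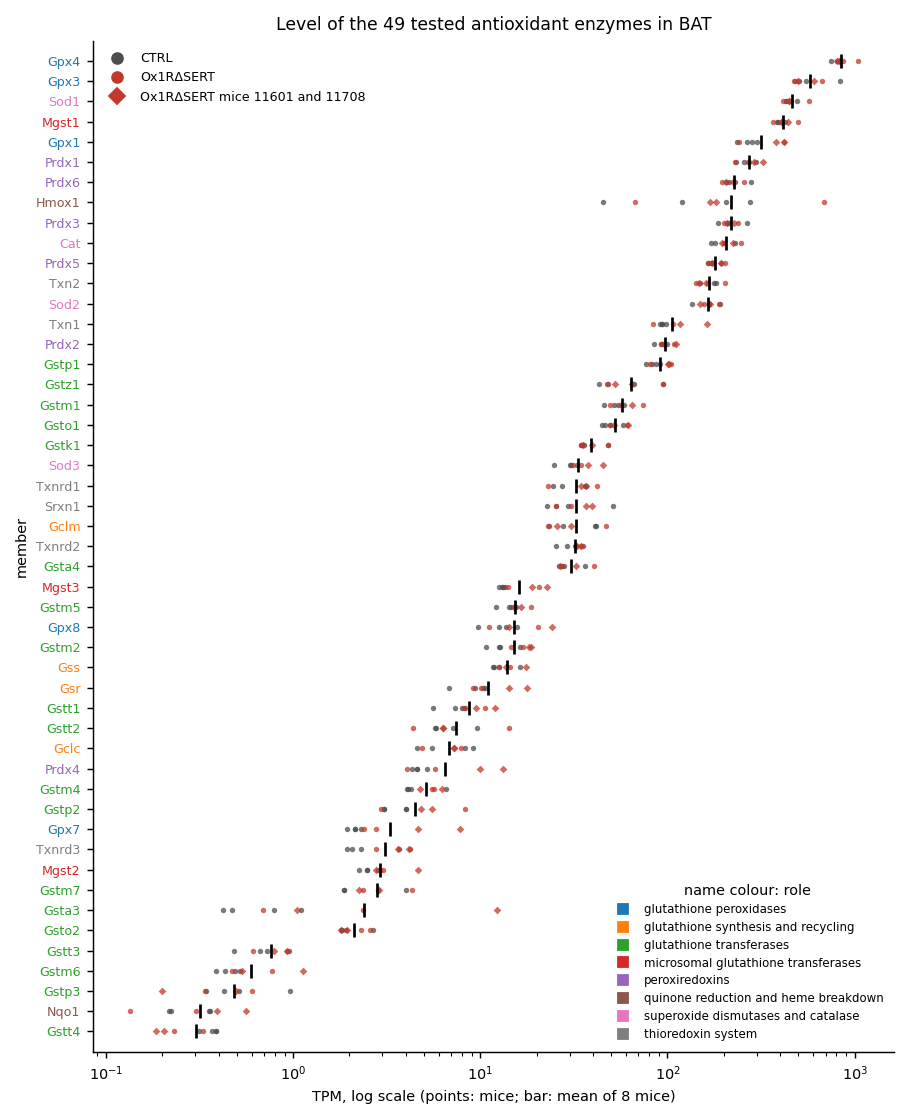
Level of the 49 tested antioxidant enzymes (y axis, ordered by mean, name colour by role) in TPM on a log scale (x axis). Points are single mice, in grey for CTRL and red for Ox1RΔSERT with mice 11601 and 11708 as diamonds, and black bars are means of 8 mice; Gpx4 leads at 844 TPM and Gstt4 is lowest at 0.301 TPM.

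The enzymes that make glutathione had no member past the test. Gclc (ENSMUSG00000032350) encodes the catalytic subunit of glutamate-cysteine ligase, the rate-limiting enzyme of glutathione synthesis. It had 17.8, 24.4, 33.3 and 35.2 CPM in the control mice and 20.1, 20.1, 24.7 and 20.6 CPM in the Ox1RΔSERT mice. The Ox1RΔSERT values were close together and inside the range of the controls, which differed among themselves by 1.98-fold, and edgeR gave a log2 fold change of -0.37 (SE 0.21, adjusted p = 0.394), which was -0.30 without mice 11601 and 11708. Gclm (ENSMUSG00000028124), the modifier subunit of the same ligase, had 34.6, 42.4, 59.2 and 53.7 CPM in the control mice and 36.9, 32.8, 43.8 and 28.1 CPM in the Ox1RΔSERT mice. Here mice 11601 and 11708 lay below all others, control mouse 10684 came next, and the groups overlapped. The log2 fold change of -0.43 (SE 0.19, adjusted p = 0.335) for Gclm became -0.23 without mice 11601 and 11708. In both subunits mouse 10684 was the lowest control, followed by mouse 11253.

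The other enzymes of this role showed smaller differences. Gss, which adds glycine to complete glutathione, ranged from 24.9 to 39.8 CPM over the 8 mice. Gsr, which reduces oxidized glutathione with NADPH, ranged from 21.1 to 34.5 CPM. Over the 4 genes, 3 were on the lower side, with a median log2 fold change of -0.27 that was -0.16 without mice 11601 and 11708.

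The glutathione peroxidases gave the highest levels and mixed directions. Gpx4 (ENSMUSG00000075706), which reduces lipid hydroperoxides in membranes, had 813, 818, 823 and 773 CPM in the control mice and 882, 579.8, 875 and 579.8 CPM in the Ox1RΔSERT mice. The control mice were nearly level, mice 11243 and 11613 lay above all of them, and mice 11601 and 11708 lay well below. The log2 fold change of -0.15 (SE 0.17, adjusted p = 0.679) therefore averages mice that lay on opposite sides, and without mice 11601 and 11708 the log2 fold change was 0.13. In TPM mice 11601 and 11708 were at 824 and 809, inside the control range of 750 to 833. On log2(TPM + 1) the fold change of Gpx4 was 0.13, or -0.10 relative to the shift of all genes. Gpx4 shares 38.9% of its 31-base stretches with other annotated genes, so its counts depend on how Salmon shared out reads.

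Gpx3 (ENSMUSG00000018339), a secreted peroxidase, had 1627, 1103, 1093 and 929.8 CPM in the control mice and 967, 833, 1107 and 711 CPM in the Ox1RΔSERT mice. All 4 Ox1RΔSERT mice were below the control mean of 1188 ± 303 CPM (SD, n = 4), which control mouse 10684 raised, and the groups overlapped. With all mice edgeR gave a log2 fold change of -0.39 (SE 0.20, adjusted p = 0.374), and -0.19 without mice 11601 and 11708. Leaving out control mouse 10684 alone gave -0.21. Gpx1 (ENSMUSG00000063856), the peroxidase of the cytosol and mitochondria, had 242, 311, 219 and 256 CPM in the control mice and 227, 266, 315 and 249.8 CPM in the Ox1RΔSERT mice. The ranges of the groups nearly coincided, with a log2 fold change of 0.04 (SE 0.14, adjusted p = 0.906) that was 0.08 without mice 11601 and 11708.

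Gpx7 (ENSMUSG00000028597), a peroxidase of the endoplasmic reticulum, was the peroxidase with the largest fold change. It had 2.43, 3.55, 3.03 and 2.90 CPM in the control mice and 3.25, 7.50, 3.30 and 4.46 CPM in the Ox1RΔSERT mice. Mice 11601 and 11708 were highest, and mice 11243 and 11613 lay within the control range. The log2 fold change of 0.64 (SE 0.29, adjusted p = 0.335) was 0.15 without those mice, and the two-sided exact permutation test over the 70 assignments of 4 mice against 4 gave p = 0.114. Gpx8, a second peroxidase of this compartment, ranged from 12.4 to 23.3 CPM. Gpx2, Gpx5 and Gpx6 had 0 counts in every mouse and were not detectable at this depth.

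Among the members, 7 have a selenocysteine codon in the GENCODE annotation: Gpx1, Gpx2, Gpx3, Gpx4, Txnrd1, Txnrd2 and Txnrd3. Selenocysteine is the reactive residue of these enzymes and is encoded by TGA, which elsewhere ends translation. The coding bases around this codon are shown for the members with the highest levels in each family, 5′ to 3′ on the sense strand with TGA in capitals, to show where it lies: within the reading frame in the peroxidases and directly before the last sense codon in the reductases. They were read from the genome (GRCm38) at chr10:80054725-80054751 for Gpx4, chr11:54907244-54907270 for Gpx3, chr9:108339439-108339465 for Gpx1, chr10:82896025-82896045 for Txnrd1 and chr16:18477760-18477780 for Txnrd2, all on the plus strand and each within a single coding exon.
Gpx4: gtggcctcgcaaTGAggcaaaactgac
Gpx3: gtagccagctacTGAggtctgacagac
Gpx1: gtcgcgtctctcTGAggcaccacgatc
Txnrd1: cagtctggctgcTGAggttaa
Txnrd2: gtgactggttgcTGAggctaa
In Txnrd1 the codon is number 498 of 500 with the stop codon included, while in Gpx1 it is number 47 of 202. These selenoenzymes made 35.4% of the members' TPM. Of the 6 that were tested, 4 were on the lower side, and their median log2 fold change of -0.15 was close to the -0.16 of the 43 other tested members. Leaving out mice 11601 and 11708 turned the median of the 6 to 0.06.

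Of the 6 peroxiredoxins, 3 were lower at an unadjusted p under 0.05 by edgeR, against 4.96% of all genes lower at that threshold. Without mice 11601 and 11708, 0 were, when only 2.85% of all genes passed in either direction. Prdx6 (ENSMUSG00000026701), which reduces phospholipid hydroperoxides with glutathione, had 298, 359, 343 and 413 CPM in the control mice and 307, 236, 292 and 224 CPM in the Ox1RΔSERT mice. All 4 Ox1RΔSERT mice were below the control mean of 353 ± 47.3 CPM (SD, n = 4), and the groups overlapped only through control mouse 10684 and Ox1RΔSERT mouse 11243. Its log2 fold change of -0.42 (SE 0.14, adjusted p = 0.316) was -0.23 without mice 11601 and 11708, and the two-sided exact permutation test gave p = 0.0571. DESeq2 gave Prdx6 an adjusted p of 0.149.

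Prdx1 (ENSMUSG00000028691), an abundant peroxiredoxin of the cytosol, had 331, 367, 385 and 393 CPM in the control mice and 334, 310.0, 297 and 287 CPM in the Ox1RΔSERT mice. Again the lowest control was mouse 10684 and the highest Ox1RΔSERT mouse was 11243, with the other mice apart by group. With a log2 fold change of -0.27 (SE 0.10, adjusted p = 0.316), Prdx1 differed little without mice 11601 and 11708, at -0.22, and the two-sided exact permutation p was 0.0571. DESeq2 gave an adjusted p of 0.137. Prdx1 shares 15.2% of its 31-base stretches with other genes, which makes its counts uncertain.

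Prdx3, the peroxiredoxin of the mitochondrial matrix, ranged from 229.7 to 398 CPM with a log2 fold change of -0.34 (-0.17 without mice 11601 and 11708), and, like the other members without an Ensembl number in this text, was chosen for mention after its values were seen. Prdx2 and Prdx5 had log2 fold changes of -0.16 and -0.24, each with both mice 11601 and 11708 below the other 6, and of 0.02 and -0.04 when these were left out. Prdx4, which acts in the endoplasmic reticulum, was the exception at 0.39, with 4.76, 6.09, 4.65 and 4.73 CPM in the control mice and 4.45, 9.76, 4.85 and 7.45 CPM in the Ox1RΔSERT mice. Mice 11601 and 11708 were above all others, and without them the log2 fold change was -0.11. Over the 6 peroxiredoxins the summed level was 1412, 1411, 1414 and 1461 CPM in the control mice and 1314, 1079.6, 1227 and 998 CPM in the Ox1RΔSERT mice. On this scale all 4 Ox1RΔSERT sums were below all control sums. In TPM the sums overlapped, at 1023, 886, 982 and 1056 TPM in the control mice and 887, 1094, 1080.0 and 983 TPM in the Ox1RΔSERT mice. Over the 6 genes the median log2 fold change of -0.25 was -0.14 without mice 11601 and 11708.

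Leaving out mouse 11243 moved Prdx1, Prdx3 and Prdx6, together with Sod2 and Gsta3, across the threshold of DESeq2. In that fit 5 of 49 members were called, 10.2%, against 9.44% of 16057 genes, so the share of the members was near that of all genes. Prdx1 had a log2 fold change of -0.32 (adjusted p = 0.0336), Prdx3 -0.45 (0.0274), Prdx6 -0.51 (0.0368), Sod2 -0.43 (0.0396) and Gsta3 2.19 (0.0279), while the adjusted p of these genes reached 1.00 in other DESeq2 fits. The first 4 of them were lower in all 3 remaining Ox1RΔSERT mice than in any control mouse. Such separation was then common, as 8.10% of all genes and 5 of 49 members did not overlap on the lower side. Leaving out mouse 11613 gave 2 members called by DESeq2, Gstt2 at -0.70 (adjusted p = 0.0432) and Txn2 at -0.49 (adjusted p = 0.0390), against 6.02% of 15546 genes, and these too reached 1.00 in other fits. In edgeR the same omission raised the members at an unadjusted p under 0.05 to 15 of 49, 30.6%, against 19.1% of 14788 genes, and 0 passed the adjustment. Prdx1, Prdx3, Prdx6 and Gsta3 were among these 15, so the omissions of mice 11243 and 11613 differed in which genes passed DESeq2's adjustment, and the cause was not tested.

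**Figure D3:**
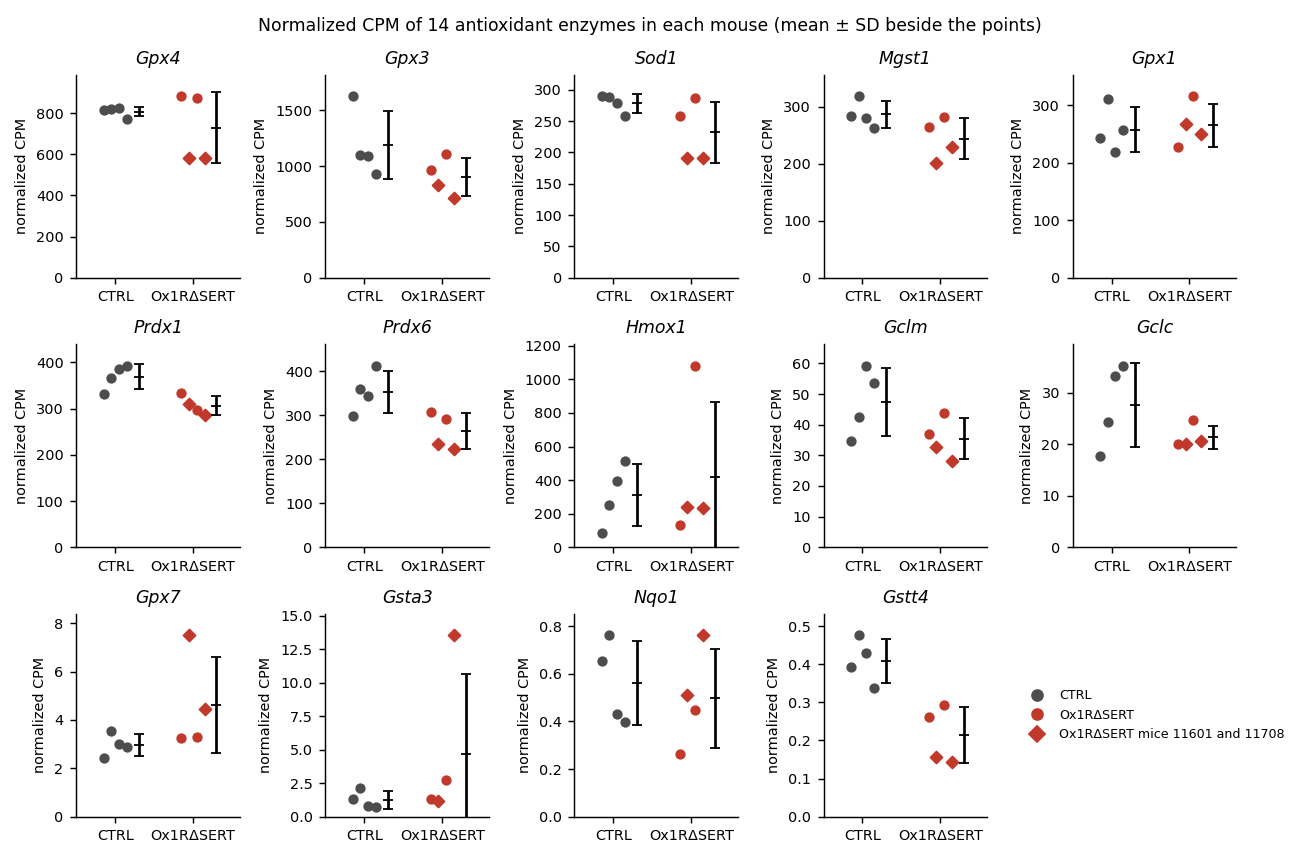
Normalized CPM (y axis, from 0) of 14 antioxidant enzymes in each mouse, by group (x axis), in grey for CTRL and red for Ox1RΔSERT, with mice 11601 and 11708 as diamonds; the bar beside the points is the mean ± SD of 4 mice and is not drawn below 0. In Gpx4 and Sod1 the diamonds lie below every other mouse, in Gpx7 above, and in Hmox1 mouse 11613 stands at 1081 CPM.

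The thioredoxin system recharges the peroxiredoxins. Its 6 genes summed to 603, 627, 688 and 745 CPM in the control mice and 580.0, 530.2, 637 and 504 CPM in the Ox1RΔSERT mice, with 5 genes on the lower side and a median log2 fold change of -0.19 that was -0.12 without mice 11601 and 11708. Txn2, the mitochondrial thioredoxin, was lowest in mice 11601 and 11708 and had a log2 fold change of -0.34 (SE 0.16, adjusted p = 0.336), which was -0.10 without them. Txn1, the thioredoxin of the cytosol, ranged from 72.9 to 101 CPM with its highest value in mouse 11601. Srxn1, the sulfiredoxin that repairs over-oxidized peroxiredoxins, had 68.4, 94.8, 99.0 and 160.5 CPM in the control mice and 87.1, 83.9, 81.4 and 93.0 CPM in the Ox1RΔSERT mice. Its spread lay within the control group, where mouse 10684 was lowest and mouse 11563 highest, and the Ox1RΔSERT mice lay between them. Txnrd1, Txnrd2 and Txnrd3, the reductases, had log2 fold changes of -0.22, -0.16 and 0.23, and of -0.14, 0.03 and 0.32 without mice 11601 and 11708.

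Superoxide dismutases and catalase were all on the lower side with TMM scaling, by small amounts. Sod1 (ENSMUSG00000022982), the copper and zinc dismutase of the cytosol, had 289.5, 288, 278 and 257 CPM in the control mice and 258, 191, 287 and 191 CPM in the Ox1RΔSERT mice. Mouse 11613 was within the controls, mouse 11243 at their lower edge, and mice 11601 and 11708 below. The log2 fold change of -0.26 (SE 0.15, adjusted p = 0.401) was -0.03 without mice 11601 and 11708, and 3 of 4 Ox1RΔSERT mice were below the control mean. Sod2, the manganese enzyme of the mitochondrial matrix, had 686, 570.1, 635 and 616 CPM in the control mice and 618, 454, 538 and 411 CPM in the Ox1RΔSERT mice, with a log2 fold change of -0.31 (SE 0.14, adjusted p = 0.339) that was -0.11 without mice 11601 and 11708. Cat, the peroxisomal catalase, ranged from 439 to 724 CPM with a log2 fold change of -0.17 (0.04 without these mice). In Sod1, Sod2 and Cat mice 11601 and 11708 were both below the other 6, and in Sod3, the extracellular dismutase, the mice ranged from 117 to 140.4 CPM. The median of the 4 genes was -0.22 with all mice and -0.01 without mice 11601 and 11708. On log2(TPM + 1), before the shift of all genes is taken off, all 4 were above 0. Their median was then 0.10, or -0.13 relative to that shift.

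Cytosolic and mitochondrial glutathione transferases formed the largest role, with 22 genes of which 19 were tested. Most stand in clusters of neighbouring copies: 7 Gstm genes within 149.1 kb of chromosome 3, 4 Gstt genes within 63.3 kb of chromosome 10, 3 Gstp genes within 24.2 kb of chromosome 19, and Gsta1, Gsta2 and Gsta4 on chromosome 9. Gsto1 and Gsto2 lie within 31.4 kb on chromosome 19. On the TPM scale Gstp1 led at 90.7 TPM, followed by Gstz1, an enzyme of tyrosine breakdown, at 63.8 and Gstm1 at 56.8 TPM. Members of 1 cluster differed widely in level, from 0.593 TPM in Gstm6 to 56.8 TPM in Gstm1 among the tested Gstm genes. Gstz1 had 201, 163, 106 and 92.5 CPM in the control mice and 108, 80.5, 167 and 103 CPM in the Ox1RΔSERT mice, so that the control group alone covered a 2.17-fold range. Of the 19 tested genes 14 were on the lower side, with a median log2 fold change of -0.12, and without mice 11601 and 11708 only 5 were, with a median of 0.08.

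Gstt4 (ENSMUSG00000009093, chr10:75814943-75822543 in GRCm38), a theta class transferase, was the only member whose groups did not overlap. It had 0.392, 0.476, 0.429 and 0.336 CPM in the control mice and 0.262, 0.158, 0.292 and 0.144 CPM in the Ox1RΔSERT mice. Every Ox1RΔSERT mouse was below every control mouse, mice 11601 and 11708 lowest, yet all values were only a few times the limit of 3 counts. Its log2 fold change of -0.92 (SE 0.32, adjusted p = 0.316) was -0.54 without these mice, and the two-sided exact permutation p of 0.0286 is the smallest that 70 assignments can give. Genes without overlap made 2.81% of all tested genes on the lower side and 2.69% on the higher, so that 1 of 49 members lower and 0 higher was no more than the background. When mouse 11243 was left out, 5 members were lower without overlap and 0 higher, against 8.10% and 7.67% of all genes. When control mouse 10684 was left out, 4 were lower and 1 higher, against 7.36% and 6.93% of all genes. Both counts were thus no larger than the shares of all genes in the 2 directions together, and on the TPM scale Gstt4 overlapped while Gpx7 and Mgst3 did not, among 5.59% of all genes on the higher side.

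Gsta3 (ENSMUSG00000025934, chr1:21240589-21265661), an alpha class transferase abundant in liver, had the largest fold change of all members. Its levels were 1.33, 2.16, 0.813 and 0.736 CPM in the control mice and 1.29, 1.18, 2.76 and 13.5 CPM in the Ox1RΔSERT mice. Mouse 11708 was several times above every other mouse, and mouse 11613 was next. The log2 fold change of 1.91 (SE 0.82, adjusted p = 0.326) came to 0.71 without mice 11601 and 11708, ranged from 0.48 to 2.27 when each mouse in turn was left out, and was lowest without mouse 11708. By the two-sided exact permutation test Gsta3 had p = 0.229, and its adjusted p by DESeq2 was 0.132. The 7 hepatocyte markers summed to 84.9, 189, 26.7 and 29.8 CPM in the control mice and 38.5, 69.6, 100.2 and 947 CPM in the Ox1RΔSERT mice. Their most abundant gene, Alb, had 20.9, 25.8, 1.47 and 1.51 CPM in the control mice and 14.3, 36.1, 4.29 and 554 CPM in the Ox1RΔSERT mice, and none of the 7 was at 0 in every mouse. Mouse 11708 thus had the highest Gsta3 and the highest liver markers, and the part of liver RNA in the Gsta3 value was not tested. Cyp2e1, 1 of the 7 markers, is also expressed by adipose tissue and made most of the sum in the control mice, at 52.8, 149, 23.1 and 26.8 CPM.

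**Figure D4:**
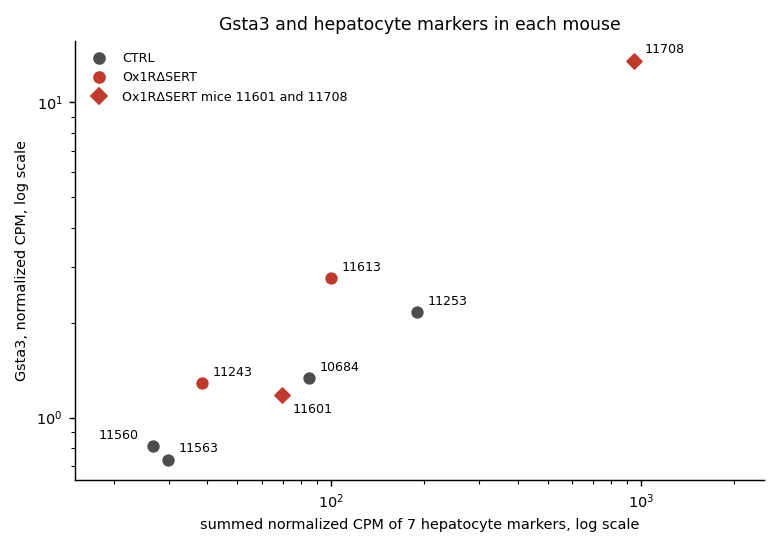
Gsta3 (y axis, normalized CPM, log scale) against the summed normalized CPM of 7 hepatocyte markers (x axis, log scale), 1 point per mouse, in grey for CTRL and red for Ox1RΔSERT with mice 11601 and 11708 as diamonds. Mouse 11708 lies at the upper right with 13.5 CPM of Gsta3 and 947 CPM of markers, and control mice 11560 and 11563 at the lower left.

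The untested transferases were near the limit of detection: Gsta1 had at most 7 counts in a mouse, Gstm3 at most 4.08 and Gsta2 at most 1.51 estimated counts. Gclm and Gstt3 also overlap exons of another annotated gene on the same strand, while for Gss, Gstm5, Gstz1, Prdx2, Prdx5 and Txnrd2 the overlapping gene is on the opposite strand, which a stranded library tells apart. Several transferases are near copies of their neighbours. Of 31-base stretches, Gsta1 shares 92.9% with other genes, Gsta2 60.7%, Gstp2 60.3%, Gstp1 38.5%, Gstm3 37.7%, Gstm1 28.8%, Gstt3 14.0% and Gstm2 12.2%. With Gpx4, Prdx1 and Sod2 (26.6%) these are the 11 members that share at least 10%, and their counts are uncertain where reads could be assigned to either copy.

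The microsomal glutathione transferases are membrane proteins with transferase and peroxidase activity. Mgst1 (ENSMUSG00000008540) had 284, 318, 281 and 263 CPM in the control mice and 265, 201, 281 and 229 CPM in the Ox1RΔSERT mice. All 4 Ox1RΔSERT mice were below the control mean of 287 ± 23.0 CPM (SD, n = 4), and the groups overlapped, with a log2 fold change of -0.23 (SE 0.13, adjusted p = 0.389) that was -0.06 without mice 11601 and 11708. Mgst2 and Mgst3 were on the other side, at 0.18 and 0.20, and both stayed there without these mice, at 0.22 and 0.25.

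Hmox1 (ENSMUSG00000005413), heme oxygenase 1, which breaks heme down to biliverdin, iron and carbon monoxide, had the widest fold range among the control mice of all tested members. It had 84.0, 251, 395 and 512 CPM in the control mice and 132, 241, 1081 and 231 CPM in the Ox1RΔSERT mice. Control mouse 10684 and mouse 11243 were low, mouse 11613 was far above all others, and the controls alone covered a 6.10-fold range. With all mice the log2 fold change of 0.44 (SE 0.72, adjusted p = 0.784) therefore rests on 1 mouse: 3 of 4 Ox1RΔSERT mice were below the control mean, and without mouse 11613 the log2 fold change was -0.63. Without mice 11601 and 11708 it was 0.97. Red blood cells carry heme, and the 7 red blood cell markers summed to 921, 1122, 464 and 1159 CPM in the control mice and 737, 353, 1231 and 585 CPM in the Ox1RΔSERT mice. Mouse 11613 was highest in both measures, but mouse 11560, which had more Hmox1 than 5 of the other mice, had few red blood cell transcripts, and any part of blood in the Hmox1 values was not tested.

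Nqo1 (ENSMUSG00000003849), the quinone reductase often used as a readout of the transcription factor NRF2, was barely expressed at 0.317 TPM. It had 0.654, 0.761, 0.429 and 0.399 CPM in the control mice and 0.262, 0.513, 0.449 and 0.761 CPM in the Ox1RΔSERT mice. The groups covered much the same range, with a log2 fold change of -0.16 (SE 0.37, adjusted p = 0.853). Leaving out mice 11601 and 11708 took the log2 fold change to -0.63, as both had more Nqo1 than the other Ox1RΔSERT mice. Hmox1 and Nqo1 did not order the mice alike: mouse 11708 was highest for Nqo1 jointly with control mouse 11253, and mouse 10684, the lowest for Hmox1, came next.

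Control mice differed among themselves in a way that ran through many members. Mouse 10684 was the highest of the 4 controls in 26 of 49 members, 53.1%, against 33.6% of all genes, and the lowest in 12, 24.5%, against 33.7%. The 12 were Gclc, Gclm, Gss, Gpx7, Gpx8, Hmox1, Prdx1, Prdx6, Srxn1, Txn1, Txn2 and Txnrd1, while Cat, Gpx3, Sod1, Sod2, Sod3 and 15 of the 19 tested cytosolic and mitochondrial transferases were among the 26. Mouse 11563 was lowest of the controls in 21 members, 42.9%, against 23.5% of genes, and highest in 7, 14.3%, against 22.4%, namely Gclc, Gss, Gstp1, Hmox1, Prdx1, Prdx6 and Srxn1. These are descriptions of single mice with no test.

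Among the Ox1RΔSERT mice, 11601 and 11708 were both below the other 6 mice in TMM CPM in 20 of 49 members, 40.8%, against 15.3% of all genes. These were Gclm, Gpx3, Gpx4, Gsta4, Gstk1, Gstm5, Gsto1, Gsto2, Gstp1, Gstt4, Mgst1, Prdx2, Prdx3, Prdx5, Prdx6, Sod1, Sod2, Cat, Txn2 and Txnrd2. Both mice were above the other 6 in 2 members, Gpx7 and Prdx4, which made 4.08% against 20.1% of all genes. In TPM, where all genes were shifted upwards, both mice were below the other 6 only in Gstt4, 1 of 49 members (2.04%) against 0.407% of all genes, and above them in 7 members (14.3%), Gpx7, Gsr, Gstm2, Nqo1, Prdx4, Sod3 and Txn1, against 43.8%. These counts describe the mice and were not tested.

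**Figure D5:**
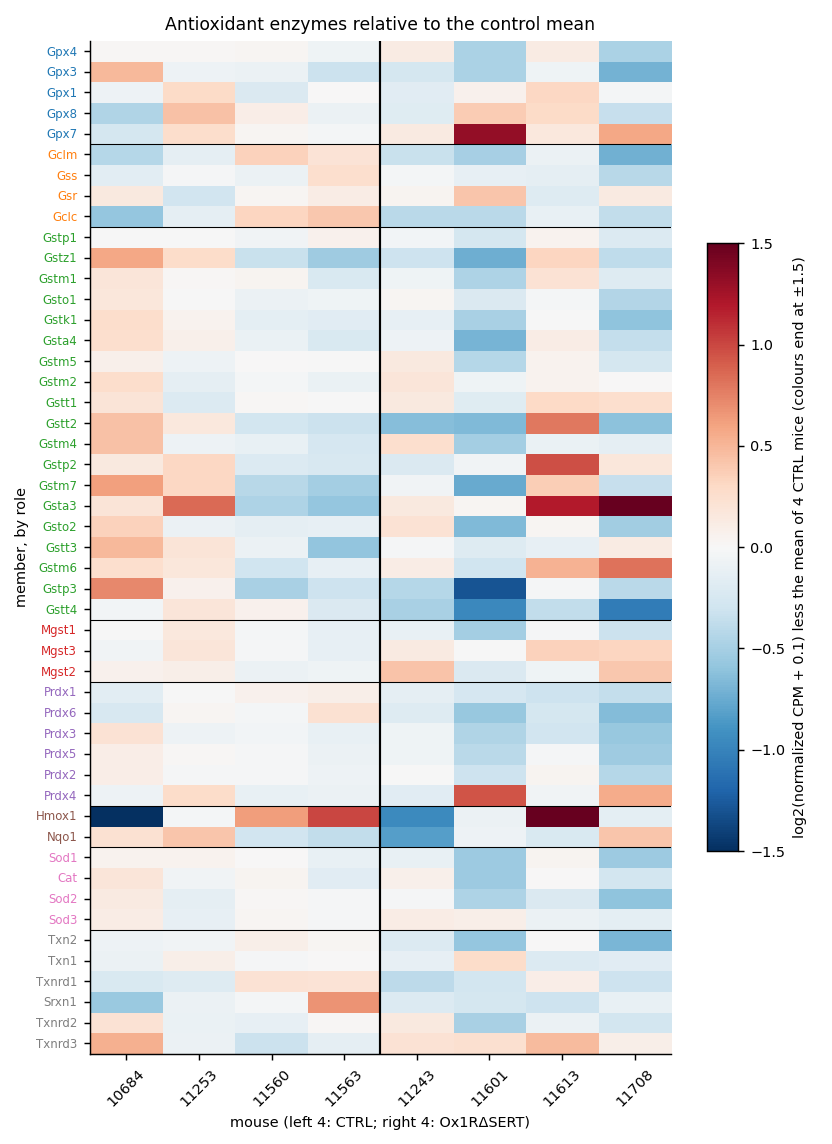
Each tested antioxidant enzyme (y axis, by role) in each mouse (x axis, CTRL left and Ox1RΔSERT right of the line) as log2 of normalized CPM plus 0.1, less the mean of the 4 control mice, from blue (lower) to red (higher), with colours ending at ±1.5. Columns 11601 and 11708 are mostly blue, Gpx7 and Prdx4 are red there, and Hmox1 runs from blue in 10684 and 11243 to red in 11613.

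NRF2, encoded by Nfe2l2, binds the antioxidant response element near many of these genes, with the core TGACNNNGC. In the RefSeq promoters, 250 bases before to 50 after the start of each gene, this core was found on either strand in 9 of the 48 members with an entry, 18.8%, against 14.0% of 27025 genes. The 9 were Gclm, Gsta3, Gstm5, Gstm7, Mgst1, Prdx1, Sod1, Srxn1 and Txnrd1. Gclc, Gsr, Gsta4, Gstt2, Hmox1, Prdx6 and Sod3 had no entry. A match is a run of letters and not a binding site, and the windows are short. The windows of Gclm, Prdx1 and Gsta3 are shown as examples from the members with values in each mouse above. They come from RefSeq (GRCm38.p6), are written 5′ to 3′ on the plus strand, which is the strand of all 3 genes, and carry the core in capitals, in the reverse orientation (GCNNNGTCA) in Gclm and Prdx1 and forward in Gsta3. They lie at chr3:122245307-122245606 for Gclm, chr4:116685349-116685648 for Prdx1 and chr1:21240335-21240634 for Gsta3.
Gclm: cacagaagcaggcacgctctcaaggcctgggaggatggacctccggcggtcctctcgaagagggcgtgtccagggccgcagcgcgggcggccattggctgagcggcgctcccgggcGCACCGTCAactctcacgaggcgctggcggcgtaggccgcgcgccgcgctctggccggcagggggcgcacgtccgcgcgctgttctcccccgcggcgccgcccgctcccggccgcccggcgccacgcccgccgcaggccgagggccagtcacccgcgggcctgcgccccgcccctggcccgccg
Prdx1: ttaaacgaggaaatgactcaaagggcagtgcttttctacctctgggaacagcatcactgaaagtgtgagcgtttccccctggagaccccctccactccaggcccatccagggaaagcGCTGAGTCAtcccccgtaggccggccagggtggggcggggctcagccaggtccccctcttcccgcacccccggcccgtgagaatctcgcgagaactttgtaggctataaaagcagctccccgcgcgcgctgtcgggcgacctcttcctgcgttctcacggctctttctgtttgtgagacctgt
Gsta3: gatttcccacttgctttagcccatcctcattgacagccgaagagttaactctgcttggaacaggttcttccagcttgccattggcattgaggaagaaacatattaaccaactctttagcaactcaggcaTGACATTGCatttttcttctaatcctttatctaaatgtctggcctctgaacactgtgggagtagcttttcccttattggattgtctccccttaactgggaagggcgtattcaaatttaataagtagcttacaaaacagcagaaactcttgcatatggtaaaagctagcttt
Measured from the start of transcription, the core begins at -134 in Gclm, -133 in Prdx1 and -121 in Gsta3. Gclm and Prdx1 were lowest among the controls in mouse 10684 and highest in mice 11560 and 11563, while Gsta3 was lowest in the latter pair. Other members with a reverse core were mixed. Srxn1 and Txnrd1 were also lowest among the controls in mouse 10684, while Sod1 and Mgst1 were lowest in mouse 11563. Any link between the core and the order of the mice was not tested.

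Other genes of the pathways around these enzymes were examined as lists, and edgeR called 0 genes at an adjusted p of 0.05 in each of the 7 lists, and DESeq2 called 0 or 1, against 1.75% of all genes. At an unadjusted p under 0.05 edgeR held 15.2% of all genes, and of the tested genes in each list 3 of 9 regulators of NRF2, 3 of 21 other NRF2 targets, 2 of 15 genes of glutathione turnover, 5 of 14 thioredoxin-fold and repair enzymes, 3 of 20 genes around selenoproteins, 6 of 11 oxidant sources and 3 of 13 genes of heme and iron handling. In TMM CPM, 2.81% of all genes lay lower without overlap between the groups and 2.69% higher. List genes that did so are named below for that reason. On the higher side they were 1 of 9 regulators of NRF2, 1 of 21 other targets and 1 of 20 genes around selenoproteins. On the lower side they were 2 of 15 genes of glutathione turnover, 1 of 14 repair enzymes and 1 of 20 around selenoproteins. In TPM the shares of all genes were 0.166% and 5.59%, and these genes were not examined there. Of 9 regulators of NRF2, 4 were on the higher and 5 on the lower side, with a median log2 fold change of -0.03, which was 0.13 without mice 11601 and 11708. The 3 with the lowest p were Bach1, a repressor that competes with NRF2, at 0.54 (SE 0.16), Mafk, a small MAF partner of both, at 0.49 (SE 0.19), and Cul3, a ubiquitin ligase scaffold that acts with KEAP1, at -0.21 (SE 0.09). In the same order they had 0.25, 0.35 and -0.17 without mice 11601 and 11708. Mafk had 11.4, 17.8, 17.9 and 21.5 CPM in the control mice and 21.7, 28.2, 21.8 and 24.6 CPM in the Ox1RΔSERT mice, so that all Ox1RΔSERT mice were above all controls, though mouse 11563 was close. Of 22 other NRF2 targets 21 were tested, 13 on the higher and 8 on the lower side, with a median of 0.11 (0.12 without these mice). Among them Slc7a11, the cystine transporter that feeds glutathione synthesis, had 1.13 (SE 0.49), Ugdh 1.38 (SE 0.51), Abcc1, an exporter of glutathione conjugates, 0.38 (SE 0.14), and Akr1a1, whose groups did not overlap, 0.18 (SE 0.08). Slc7a11, Ugdh, Abcc1 and Akr1a1 were 0.20, 0.02, 0.23 and 0.21 without mice 11601 and 11708.

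Of 18 genes of glutathione turnover and transport 15 were tested, 10 of them on the lower side, with a median of -0.14 (-0.06 without these mice). Slc25a39, a mitochondrial carrier needed for glutathione import, had 297, 263, 285 and 266 CPM in the control mice and 253, 187, 249 and 177 CPM in the Ox1RΔSERT mice. Its groups did not overlap, and the log2 fold change of -0.36 (SE 0.14, adjusted p = 0.316) was -0.14 without mice 11601 and 11708. Hagh, the glyoxalase that releases glutathione again, did not overlap either and had a log2 fold change of -0.32 (SE 0.15), which was -0.06 without these mice. Anpep, an aminopeptidase that cleaves cysteinylglycine, was called higher by DESeq2 (log2 fold change 1.94, adjusted p = 0.0314), with 4.02, 27.2, 6.80 and 20.8 CPM in the Ox1RΔSERT mice and 2.46, 6.21, 3.77 and 2.71 CPM in the control mice, and edgeR gave it 0.53 without mice 11601 and 11708.

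All 14 thioredoxin-fold and repair enzymes were tested, 6 on the higher and 8 on the lower side, with a median of -0.15 (-0.07 without these mice). Txnip, the inhibitor of thioredoxin, had 695, 636, 770.1 and 587 CPM in the control mice and 1127, 753, 1066 and 758 CPM in the Ox1RΔSERT mice. It was highest in mice 11243 and 11613, with mice 11601 and 11708 inside the control range, and its log2 fold change of 0.46 (SE 0.17) was 0.71 without mice 11601 and 11708. Msra, which repairs oxidized methionine, did not overlap between the groups (-0.35, SE 0.13), and Txndc12 had -0.24 (SE 0.10), while without these mice Msra had -0.18 and Txndc12 -0.14. Of the 20 genes of selenoprotein synthesis and other selenoproteins 13 were on the lower side, with a median of -0.07 (-0.07 without these mice). Sephs2, which makes the selenium donor for all selenoproteins, had 123, 112, 135 and 122 CPM in the control mice and 99.8, 72.5, 109 and 64.3 CPM in the Ox1RΔSERT mice. All Ox1RΔSERT mice were below all controls, with a log2 fold change of -0.51 (SE 0.17, adjusted p = 0.316), and -0.23 without mice 11601 and 11708. Selenoh did not overlap on the higher side (0.26, SE 0.15), and Selenon and Dio2, the deiodinase that activates thyroid hormone in BAT, had 0.98 (SE 0.33) and -1.22 (SE 0.50). Without these mice Selenoh, Selenon and Dio2 had 0.18, 0.25 and -0.87.

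Enzymes that produce oxidants were examined as well. Of 14 NADPH oxidase subunits and other oxidant sources 11 were tested, and 10 were on the higher side, with a median of 1.39 that was 0.06 without mice 11601 and 11708. Cybb, the catalytic subunit of the phagocyte oxidase, had 3.45, 4.91, 1.63 and 2.98 CPM in the control mice and 5.37, 24.4, 3.52 and 20.6 CPM in the Ox1RΔSERT mice and was called higher by DESeq2 (log2 fold change 2.04, adjusted p = 0.0309). Its cytosolic partners Ncf4 and Rac2 had 1.71 (SE 0.57) and 1.43 (SE 0.49). Without mice 11601 and 11708 the 3 subunits had 0.47, 0.32 and 0.28. Nox1 and Duox2 had at most 3 counts in any mouse. The phagocyte oxidase genes are used mostly by leukocytes, and they were highest in the mice with the highest leukocyte markers, a link that was not tested. Of 13 genes of heme and iron handling, 7 were on the higher and 6 on the lower side, with a median of 0.11 that turned to -0.03 without mice 11601 and 11708. Slc11a1, an iron transporter of phagosomes, was called higher by DESeq2 (log2 fold change 1.67, adjusted p = 0.0362), Slc40a1, the iron exporter, had -0.39 (SE 0.15), and Hpx, a heme carrier made by the liver, had 2.93 (SE 1.23) with 63.3 CPM in mouse 11708. These 3 had 0.31, -0.25 and -0.69 without mice 11601 and 11708.

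Among the marker lists, the leukocyte list had 10 of 13 genes tested, 9 of them higher, and Lyz2 as the most abundant. DESeq2 called Ptprc, Itgam, Cd14, Fcgr1 and Mrc1 higher, and the list's median log2 fold change of 1.64 was 0.24 without mice 11601 and 11708. All 5 fibroblast markers, led by Col3a1, were on the higher side with a median of 1.72 and 0.43 without these mice, and DESeq2 called Pdgfra. All 9 brown adipocyte markers, led by Cox8b, were on the lower side with a median of -0.52 and -0.26 without these mice, and DESeq2 called Elovl3. The 6 adipocyte markers, led by Fabp4, split 3 to 3 with a median of -0.01 (0.13 without these mice), with sums of 8115, 8594, 7089 and 6922 CPM in the control mice and 7092, 5843, 7674 and 5279.7 CPM in the Ox1RΔSERT mice. The 9 brown adipocyte markers, with Ucp1 among them, summed to between 4300.3 and 8633 CPM in the 8 mice.

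Of the 7 hepatocyte markers 6 were higher and 5 were so at an unadjusted p under 0.05 by edgeR, against 10.2% of all genes on the higher side, with 0 called by either tool, though DESeq2 gave an adjusted p to only 1 of them. Their median of 3.36 turned to -0.21 without mice 11601 and 11708. Skeletal muscle markers, led by Acta1, summed to 46.8, 1880.1, 41.8 and 48.4 CPM in the control mice and 80.6, 253, 18.0 and 2642 CPM in the Ox1RΔSERT mice, with 7 of 9 tested genes on the higher side, and were highest in mice 11253 and 11708. Their median of 0.56 turned to -3.74 without mice 11601 and 11708, when mouse 11253 was left as the only mouse with a high sum. The 6 neutrophil markers, led by S100a9, summed to 24.9, 9.23, 11.6 and 4.60 CPM in the control mice and 12.9, 19.4, 25.5 and 38.6 CPM in the Ox1RΔSERT mice, with all 5 tested genes on the higher side and a median of 0.69 (0.59 without these mice). The 7 red blood cell markers, led by Hbb-bs, had all 5 tested genes on the lower side, with a median of -0.34 that turned to 0.10 without these mice. The 5 endothelial markers, led by Pecam1, summed to 264, 359, 289.9 and 311 CPM in the control mice and 331, 246, 303 and 326 CPM in the Ox1RΔSERT mice, with 2 higher and 3 lower and a median of -0.14 (0.02 without these mice). None of the markers in these lists was at 0 in every mouse.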

How the data were processed

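BAT mRNA of 4 CTRL and 4 Ox1RΔSERT mice was sequenced from stranded, poly-A selected libraries. The authors quantified genes with Salmon 0.14.1 on GRCm38 and deposited estimated counts per gene, not normalized. The authors also deposited TPM values, normalized for transcript length within each mouse. The annotation release is not given in the sources used here. Symbols came from GENCODE M21 (GRCm38), matched for 44118 of 44674 genes. The members and gene lists were chosen with earlier results of these data known.

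Estimated counts were rounded and tested over all genes with edgeR 4.0.16 in R 4.3.3 (filterByExpr, TMM, quasi-likelihood test, two-sided, Benjamini-Hochberg, threshold 0.05, no covariates). SEs were computed from the F statistic. Single genes were compared with exact permutation tests on TMM CPM (70 assignments, smallest p 0.0286). Alternatives were DESeq2 1.42.0, RLE and upper-quartile scaling, no mitochondrially encoded genes, no filter or at least 10 counts in every mouse, limma 3.58.1 (voom on counts, and the trend method on log2 TPM with 1 or 0.1 added), each mouse left out in turn by edgeR and DESeq2, and mice 11601 and 11708 left out together. The TPM counts of members lowest or highest in both of these mice, and TPM signs before the shift of all genes is taken off, were chosen after seeing the data.

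Values in each mouse are given for members called by DESeq2, members without overlap between groups, the 8 highest in mean TPM, those with an absolute log2 fold change of at least 0.5 and a mean TPM of at least 1, and Hmox1, Nqo1, Gclc and Gclm, 14 in all. Values in each mouse of Prdx4, Srxn1, Sod2 and Gstz1 were added after they were seen. From the 7 pathway lists, genes were named if called by DESeq2, without overlap, or among the 3 with the lowest p. The 9 marker lists were leukocyte and macrophage, brown adipocyte, adipocyte, skeletal muscle, red blood cell, neutrophil, endothelium, fibroblast and hepatocyte. Promoters were those of RefSeq (GRCm38.p6), matched for 48 of 55 members. Shared sequence is the share of a gene's 31-base stretches found in transcripts of other genes. Pairs of libraries of a group differed by a chi-square of 16.5 to 217 per degree of freedom, a measure that compares separate mice with counting error only.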

Additional observations from a re-analysis of the deposited data

Results flagged for a closer look

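In each group of 4 mice, a value was picked out where its gap to the nearest other mouse took most of the group's range (Dixon ratio above its 5% limit), which chance does in about 1 in 20 groups. Of 96 groups examined, 9 had such a value. Among the members these were Gclc in mouse 11613 at 24.65 CPM against 20.09 to 20.65 in the other Ox1RΔSERT mice, Gsta3 in mouse 11708 at 13.53 CPM against 1.18 to 2.76, and Hmox1 in mouse 11613 at 1081 CPM against 132 to 241. In the pathway lists, Abcc1 was at 28.72 CPM in control mouse 10684 against 20.57 to 21.54, and Hpx at 63.35 CPM in mouse 11708 against 0.898 to 5.78. Mouse 11243 had 50060000 counts (rounded) against 41560000 to 42610000 in the other Ox1RΔSERT mice. The summed hepatocyte markers were 946.5 CPM in mouse 11708 against 38.45 to 100.2. Skeletal muscle markers reached 1880 CPM in control mouse 11253 against 41.8 to 48.36, and 2642 CPM in mouse 11708 against 17.96 to 253. Mouse 11708 held 4 of these 9 values, and what they share was not tested.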

How the results depend on the processing

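edgeR's count of 0 members at an adjusted p of 0.05 was the same under every alternative run. The count at an unadjusted p under 0.05, 5 members, ranged from 1 to 15 when each mouse was left out in turn and was 0 without mice 11601 and 11708. The median log2 fold change of the members, -0.16, turned to 0.14 on log2(TPM + 1) and 0.15 on log2(TPM + 0.1), where all genes shifted by 0.23 and 0.32, and to 0.0122 without mice 11601 and 11708 (0.0043 by DESeq2). With each mouse left out it stayed between -0.24 and -0.07. DESeq2's count of 0 members ranged from 0 to 5 with each mouse left out. Members without overlap, 1 of 49, came to 2 lower with upper-quartile scaling (2.93% of all genes lower), 2 higher on TPM (5.59% higher), 2 lower and 1 higher, 3 in all, without mice 11601 and 11708 (5.83% and 4.95%), and 1 to 5 with each mouse left out (3.31% to 8.10% lower, 2.99% to 7.67% higher).

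Of 377 alternative fold changes of the 14 named members, 363 kept their direction and side of the threshold, 3 passed it (Gsta3, Prdx1 and Prdx6 by DESeq2 without mouse 11243) and 11 changed sign. The TPM fold changes among these are relative to the median of all genes. Before that shift is taken off, 6 of the 14, all below 0 with TMM, were above 0 on log2(TPM + 1): Gclc 0.012, Gpx4 0.134, Mgst1 0.083, Nqo1 0.055, Prdx1 0.070 and Sod1 0.042. The same 6 were above 0 on log2(TPM + 0.1), at 0.017 to 0.134. Gpx4 was 0.13 without mice 11601 and 11708, by edgeR and by DESeq2 (0.128). With each mouse left out, edgeR gave -0.0574 to 0.128 for Gpx1, -0.63 to 0.78 for Hmox1 and -0.44 to 0.0239 for Nqo1. Nqo1 was furthest from 0 without mice 11601 and 11708, at -0.63 by edgeR and -0.64 by DESeq2. DESeq2 gave -0.0366 and -0.0715 for Gpx1 without mice 11560 and 11613, -0.65 for Hmox1 without mouse 11613, and 0.0006 and 0.0328 for Nqo1 without mice 11253 and 11243. The cause was not tested beyond the mice named. By mean CPM in place of TPM, 5 of the 8 most abundant members were the same. No paired analysis was possible because the replicate numbers only follow sample order and the labels do not say which mice shared a litter, although the paper reports littermate controls. Gstt4, Nqo1 and the low transferases rest on few counts, and depth limits what they can show.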
